A study of Mus musculus with 8 samples.

Results

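The transcripts described here are 8 markers of tendon and of the myotendinous junction, chosen by name: Tnmd, Scx, Mkx, Fmod, Thbs4, Comp, Tnc and Ankrd35. All 8 were found among the 55487 genes of the deposited table, and all 8 had a mean of at least 5 normalized counts, the level at which a gene was tested. The study compared K14Q MOTS-c with the unaltered peptide in the muscle loss that follows casting. MOTS-c is a microprotein encoded in the mitochondrial 12S rRNA gene, and K14Q is a naturally occurring form with glutamine in place of lysine. The 8 libraries came from 8 male C57BL/6J mice, 10 weeks old, whose hindlimbs were both cast for 8 days while they received 15 mg/kg of K14Q MOTS-c per day as 2 intraperitoneal injections. Every mouse therefore shared the casting and the peptide, and the libraries of mice without them or with the unaltered peptide were not analysed here, so no value below is an effect of either. The comparisons are between mice and between genes. The labels name vastus lateralis, whereas the study's design names gastrocnemius. The tissue is therefore called hindlimb muscle.

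Tendon is a collagen-rich tissue made by tenocytes, and it joins muscle at the myotendinous junction, where the ends of muscle fibres fold around the tendon matrix. Scx, a basic helix-loop-helix factor, and Mkx, an atypical homeobox factor, act in tendon cells and control matrix genes. Tnmd is a membrane glycoprotein used as a marker of mature tenocytes. Fmod is a small leucine-rich proteoglycan that binds collagen fibrils, Thbs4 and Comp are thrombospondins of the matrix, and Tnc is a tenascin found in tissues under load, including the myotendinous junction. A whole-muscle sample holds varying amounts of such tissue, and in bulk RNA fewer cells of a type and less RNA per cell cannot be told apart.

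The libraries held 23985356 to 33012497 reads assigned to genes. Normalized counts are read counts divided by a library's size factor, and these factors ran from 0.906 to 1.20. The 10 most abundant genes took 18.8% to 26.2% of the reads. The libraries were checked for copies of the same library. None of the 28 pairs was one, since the chi-square of their reads over 15135 genes was at least 16.1 per degree of freedom, and nothing more is read from this. Skeletal muscle fibre markers dominated, with a summed level of 2004320 to 4062360 normalized counts over 10 genes. Over Tnmd, Scx, Mkx, Fmod, Thbs4 and Comp together the sum was lowest in mouse 8 at 905 normalized counts, had a median of 4220 and was highest in mouse 1 at 6158. Cartilage markers were scarce, with a sum of 71.3 to 141 normalized counts over 10 genes and with 6 of the 10, Acan, Hapln1, Matn1, Matn3, Cnmd and Col10a1, at 0 reads in at least 1 library. Bone markers summed to 0.917 to 13.2 normalized counts over 4 genes.

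Windows before RefSeq start sites on GRCm38.p6 were examined for 5 of the 8 genes. The others were not examined, so the motif counts below do not cover them. The 250 bases before the start are printed for Fmod, Thbs4, Tnc and Tnmd, whose levels had a positive r with each other over the 8 mice, though in no pair after adjustment for all tests, and for Ankrd35, whose r with them lay between −0.31 and 0.10. Capitals mark matches to CANNTG, the E-box that basic helix-loop-helix factors such as Scx bind, and each sequence runs 5′ to 3′ on the strand of its gene.
Fmod: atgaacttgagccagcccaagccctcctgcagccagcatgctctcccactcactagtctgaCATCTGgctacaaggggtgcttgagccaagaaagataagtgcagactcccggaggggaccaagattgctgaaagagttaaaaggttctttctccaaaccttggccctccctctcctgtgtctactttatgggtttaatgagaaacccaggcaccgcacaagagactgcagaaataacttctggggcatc
Thbs4: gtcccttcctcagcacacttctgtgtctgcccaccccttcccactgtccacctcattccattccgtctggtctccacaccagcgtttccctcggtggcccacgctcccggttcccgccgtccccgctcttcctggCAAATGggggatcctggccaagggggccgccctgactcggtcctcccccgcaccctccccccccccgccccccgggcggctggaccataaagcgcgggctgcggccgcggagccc
Tnc: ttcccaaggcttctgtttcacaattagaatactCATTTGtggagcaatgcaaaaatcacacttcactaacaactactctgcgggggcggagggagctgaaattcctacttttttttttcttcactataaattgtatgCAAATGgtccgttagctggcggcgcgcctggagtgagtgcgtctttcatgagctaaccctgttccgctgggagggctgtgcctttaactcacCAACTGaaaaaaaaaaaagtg
Tnmd: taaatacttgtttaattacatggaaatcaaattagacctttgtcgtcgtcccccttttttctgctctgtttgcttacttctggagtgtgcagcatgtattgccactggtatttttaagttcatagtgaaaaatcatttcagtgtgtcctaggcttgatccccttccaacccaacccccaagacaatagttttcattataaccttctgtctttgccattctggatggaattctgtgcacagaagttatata
Ankrd35: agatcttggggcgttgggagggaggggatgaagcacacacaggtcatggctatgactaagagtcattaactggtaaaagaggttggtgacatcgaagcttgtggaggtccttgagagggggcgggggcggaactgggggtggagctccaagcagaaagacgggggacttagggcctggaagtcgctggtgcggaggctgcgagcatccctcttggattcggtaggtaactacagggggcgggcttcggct
The Fmod window lies at chr1:134037004-134037253 on the plus strand and the Thbs4 window at chr13:92794819-92795068 on the minus strand. The Tnc window lies at chr4:64047016-64047265 on the minus strand, and a second RefSeq start of Tnc moves it to chr4:64046937-64047186. The Tnmd window lies at chrX:133850758-133851007 and the Ankrd35 window at chr3:96669881-96670130, both on the plus strand. The RefSeq start of Tnmd lies downstream of the gene start given below, so its window reaches into the gene. Fmod and Thbs4 each held 1 E-box, Tnc held 3 (2 at its second start), and Tnmd and Ankrd35 held 0. CANNTG reads the same on both strands in this search, and 66.2% of all 32851 windows of this length held it, so its presence in 3 of these 5 genes is a description only. The Fmod match was CATCTG, a form found on either strand in 14.4% of all windows. The sequence TATAAA was found in the Tnc window and in 12.4% of all windows on either strand, while GCGNGGGCG, the letters bound by early growth response factors, was found in the windows of Tnc and Ankrd35 and on either strand in 4.70% of all windows. The TATAAA and GCGNGGGCG matches overlapped no E-box.

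The transcription factors were both low, and their levels ran differently over the mice. Scx (ENSMUSG00000034161, chr15:76457452-76459458, plus strand) had 38.2 normalized counts in the lowest mouse, a median of 61.2 and 86.5 in the highest, or 66.3 ± 17.5 (SD, n = 8). Mouse 3 was lowest, and mice 4, 5 and 8 lay close together at the top with 84.7, 85.3 and 86.5 normalized counts. Mkx (ENSMUSG00000061013, chr18:6934518-7004780, minus strand) had 7.66 normalized counts in the lowest mouse, a median of 33.2 and 44.0 in the highest, or 28.3 ± 13.8 (SD, n = 8). Mice 7 and 8 stood below the others for Mkx, with 7.73 and 7.66 normalized counts against 25.8 to 44.0 in the other 6. Scx lies inside the bounds of Bop1, a ribosome biogenesis gene on the opposite strand with a mean of 714 normalized counts. Whether reads were counted by strand is not given in the sources used here, so the Scx value is uncertain to that extent. Over the 8 mice, Scx and Bop1 had r = −0.022 (exact permutation p = 0.96) and a Spearman rho of −0.048 (exact permutation p = 0.93), and without the 2 mice farthest from the Bop1 median r was −0.15.

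Tnmd, the tenocyte surface marker (ENSMUSG00000031250, chrX:133850980-133865577, plus strand), varied 7.84-fold between the lowest and the highest mouse. Its lowest level was 19.7 normalized counts in mouse 8, its median 58.6 and its highest 155 in mouse 2, or 67.6 ± 44.9 (SD, n = 8). Mouse 1 was the other high animal with 111 normalized counts, and no other mouse passed 67.5.

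The 4 matrix genes differed widely in abundance but shared their lowest animal. Fmod (ENSMUSG00000041559, chr1:134037254-134048277, plus strand) ran from 211 normalized counts in mouse 8 through a median of 1592 to 2853 in mouse 1, a 13.5-fold range, with a mean of 1554 ± 975 (SD, n = 8). Its second lowest value was 490 normalized counts in mouse 7, and the 3 highest were in mice 1, 2 and 6. Thbs4 (ENSMUSG00000021702, chr13:92751590-92794818, minus strand) ran from 564 normalized counts in mouse 8 through a median of 2108 to 3081 in mouse 5, a 5.47-fold range, with a mean of 1942 ± 884 (SD, n = 8). Mouse 5, highest for Thbs4, was among the lower animals for Comp, at 53.2 normalized counts. Comp (ENSMUSG00000031849, chr8:70373558-70382066, plus strand) ran from 16.4 normalized counts in mouse 8 through a median of 93.6 to 165 in mouse 1, a 10.0-fold range, with a mean of 91.8 ± 57.8 (SD, n = 8). It fell into a high group of mice 1, 2, 4 and 6 at 134 to 165 normalized counts and a low group of mice 3, 5, 7 and 8 at 16.4 to 53.2. Tnc (ENSMUSG00000028364, chr4:63959785-64047015, minus strand) ran from 40.5 normalized counts in mouse 8 through a median of 107 to 203 in mouse 5, a 5.0-fold range, with a mean of 119 ± 65.2 (SD, n = 8). Mouse 4 was low for Tnc, at 73.7 normalized counts, although it was among the higher animals for Comp and Thbs4.

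Ankrd35, an ankyrin repeat gene (ENSMUSG00000038354, chr3:96670131-96691032, plus strand), was the most even of the 8. It ran from 33.5 normalized counts in mouse 2 through a median of 49.2 to 66.5 in mouse 6, a 1.99-fold range, with a mean of 50.3 ± 10.4 (SD, n = 8). Counting error alone accounted for 46.6% of its variance between mice and for 22.3% of that of Scx. Mouse 8 was the lowest animal for 6 of the 8 genes, namely Tnmd, Mkx, Fmod, Thbs4, Comp and Tnc, and the highest for Scx. Mouse 7 was the second lowest for 4 of them, Mkx, Fmod, Thbs4 and Comp. Mouse 8 was also lowest for the summed tendon matrix, sheath and progenitor, junction, thrombospondin and tenascin lists used below. The adipocyte, endothelium, smooth muscle and macrophage sums were lowest there too. Mouse 3 was lowest for E proteins and muscle fibres, mouse 7 for fibroblasts, mouse 2 for cartilage, and mouse 5 for bone and Schwann cells. The share of all genes lowest in mouse 8 was not counted. In none of the 8 genes was 1 mouse set apart from the other 7 by Dixon's gap test at its 95% value, which 6.15% of all genes exceeded.

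**Figure D1:**
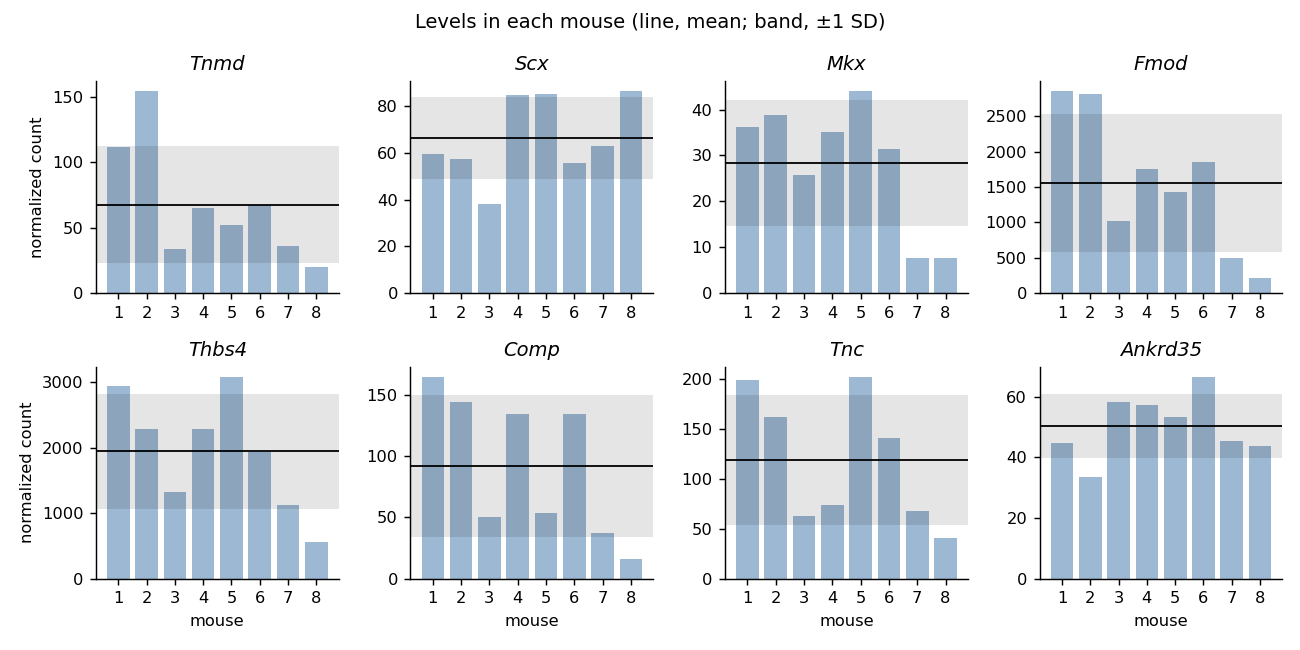
Normalized count (y axis) of each of the 8 markers in each mouse (x axis, mouse 1 to 8); bars are single animals, the line is the mean and the band ±1 SD. Mouse 8 has the shortest bar for Tnmd, Mkx, Fmod, Thbs4, Comp and Tnc, at 211 normalized counts for Fmod against 2853 in mouse 1, and the tallest for Scx.

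Ratios within an animal showed that the matrix genes did not vary by the same factor. Thbs4 over Fmod, as a ratio of normalized counts, was lowest in mouse 2 at 0.811 and highest in mouse 8 at 2.67. The ratio of Scx to Tnmd was 0.371 in mouse 2 and 4.39 in mouse 8. Comp over Thbs4, the ratio of the 2 thrombospondins, was 0.0173 in mouse 5 and 0.0694 in mouse 6.

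Levels of different genes were compared per length, as TPM, which divides recovered reads by exon length and scales each library to the same total. Thbs4 was the most abundant at 36.6 ± 16.9 TPM (SD, n = 8), followed by Fmod at 29.0 ± 17.0. The order Thbs4 over Fmod held in 7 of 8 mice. The remaining 6 were far lower. Tnmd had 3.03 ± 1.83 TPM, Scx 2.04 ± 0.634, Comp 1.92 ± 1.22, Tnc 0.928 ± 0.480, Ankrd35 0.774 ± 0.240 and Mkx 0.435 ± 0.218. Fmod exceeded Tnmd in 8 of 8 mice, by 4.39-fold to 12.2-fold. Tnmd over Scx held in 5 of 8 mice, Scx over Comp in 4 of 8 and Tnc over Ankrd35 in 4 of 8, so these neighbours were not separated beyond their spread, while Comp over Tnc and Ankrd35 over Mkx each held in 7 of 8. The ranges over mice overlapped for every pair of neighbours in this order.

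The spread between mice was then set against that of all 18165 genes tested, using limma's trend of the variance on the mean. The quantity is the SD of log2(normalized count + 1) over the 8 mice, whose median over all genes was 0.26. Fmod had an SD of 1.30, which was 7.46 times the trend at its abundance and larger than that of 99.7% of genes. Thbs4 had 0.83 (4.71 times the trend), Comp 1.17 (4.05 times), Tnc 0.87 (3.35 times), Tnmd 0.94 (3.02 times) and Mkx 0.97 (2.41 times). Scx had 0.40 (1.34 times), larger than that of 73.6% of genes, and Ankrd35 0.30 (0.942 times), larger than that of 60.3%. The 4 matrix genes, Tnmd and Mkx were thus all more than 2 times the trend, and Scx and Ankrd35 were not.

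How many of these passed depended on the test. By limma's F test against the trend with Benjamini-Hochberg adjustment over all genes, 0 of the 8 passed 0.05, as did 1 of all genes (0.00551%), and the smallest adjusted p among the markers was 0.163 for Fmod. At an unadjusted limma p under 0.05, 6 of the 8 passed (Fmod 3.95e-05, Thbs4 0.000597, Comp 0.00142, Tnc 0.00406, Tnmd 0.00708 and Mkx 0.0223), against 6.11% of all genes. A goodness-of-fit test of edgeR on the recovered whole reads, which asks whether a gene varies more than the trended dispersion, passed the same 6 after adjustment, against 4.09% of all genes. The limma test lets genes scatter around the trend, with 6.16 prior degrees of freedom, whereas the edgeR test holds every gene to it. Its adjusted p values were 1.46e-26 for Fmod, 5.50e-10 for Thbs4, 2.08e-09 for Comp, 2.93e-06 for Tnc, 7.20e-06 for Tnmd and 0.0402 for Mkx. Scx and Ankrd35 had an edgeR adjusted p of 1. With no filter on low genes, limma's adjusted test passed 5 of the 8, Fmod, Thbs4, Comp, Tnc and Tnmd, against 1.35% of all genes. The biological coefficient of variation in edgeR was 0.574 for Fmod where the trend gave 0.164, and 0.186 for Ankrd35 where the trend gave 0.227. The excess of Mkx rested on 2 animals, since without mice 7 and 8 its SD was 0.770 times the trend. For Fmod, Thbs4, Comp, Tnc and Tnmd the SD without these mice was 3.58, 2.75, 3.16, 3.22 and 2.87 times the trend.

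**Figure D2:**
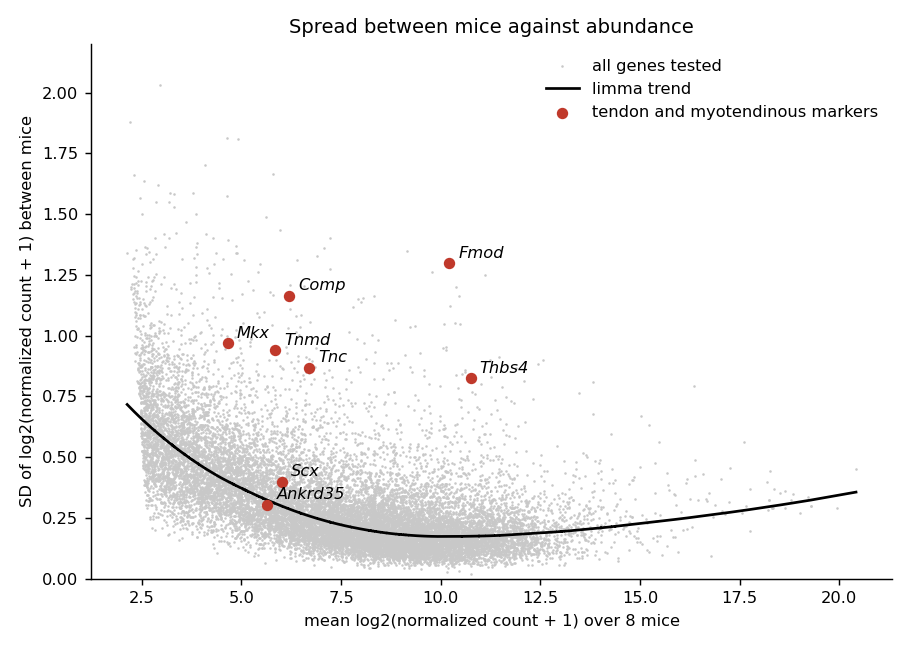
SD of log2(normalized count + 1) between the 8 mice (y axis) against the mean of the same values (x axis) for all 18165 genes tested (grey), with limma's trend (line) and the 8 markers (red). Fmod, at an SD of 1.30, and Thbs4, at 0.83, lie far above the trend for abundant genes, while Scx (0.40) and Ankrd35 (0.30) lie near it.

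Levels were then compared pair by pair over the mice. Pearson's r on log2(normalized count + 1) was positive in all 15 pairs among Tnmd, Mkx, Fmod, Thbs4, Comp and Tnc, from 0.70 for Comp and Tnc to 0.95 for Fmod and Comp. These 15 were also the pairs, of 28 in all, with a positive r and an unadjusted exact permutation p under 0.05. The same was true of 7.15% of all correlations of a marker with another gene. For the genes of these 15 pairs alone the share ran from 6.82% for Tnc to 10.0% for Fmod. None of the 28 passed adjustment over the 145284 correlations of the markers, nor did any other (0.00%). With 8 mice the smallest exact permutation p is 2.48e-05. The smallest adjusted p among all of them was 0.147.

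Fmod and Comp were the closest pair, with r = 0.95 (exact permutation p = 4.96e-05, adjusted 0.147) and rho = 0.98 (exact permutation p = 0.000397), and r = 0.88 without mice 7 and 8. Both stood high in mice 1, 2, 4 and 6. For Tnmd and Fmod r was 0.92 (exact permutation p = 0.000744, adjusted 0.197) and rho 0.95 (exact permutation p = 0.00114), with r = 0.89 without mice 2 and 8. Mkx and Thbs4, a transcription factor and a matrix gene, had r = 0.90 (exact permutation p = 0.000248, adjusted 0.193) and rho = 0.93 (exact permutation p = 0.00223), with r = 0.92 without mice 7 and 8. Thbs4 and Tnc, both high in mouse 5, had r = 0.89 (exact permutation p = 0.00211, adjusted 0.214) and rho = 0.90 (exact permutation p = 0.00456), with r = 0.79 without mice 7 and 8. Other pairs leaned on the low animals. Fmod and Thbs4 had r = 0.92 (exact permutation p = 0.00290, adjusted 0.223) but rho = 0.69 (exact permutation p = 0.0694), and r = 0.58 without mice 7 and 8. Thbs4 and Comp had r = 0.82 (exact permutation p = 0.0103, adjusted 0.271) and rho = 0.74 (exact permutation p = 0.0458), but r = 0.32 without mice 7 and 8. Mkx and Comp had r = 0.80 (exact permutation p = 0.0123, adjusted 0.285) and rho = 0.74 (exact permutation p = 0.0458), but r = 0.18 without these mice. Of the 15 pairs, 8 had an unadjusted exact permutation p under 0.05 without mouse 8, where 3.79% of all correlations of a marker with another gene did. Without mice 7 and 8, 3 of the 15 did, Tnmd with Fmod, Mkx with Thbs4 and Fmod with Comp, against 3.84% of all. All 15 kept a positive r in both cases.

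**Figure D3:**
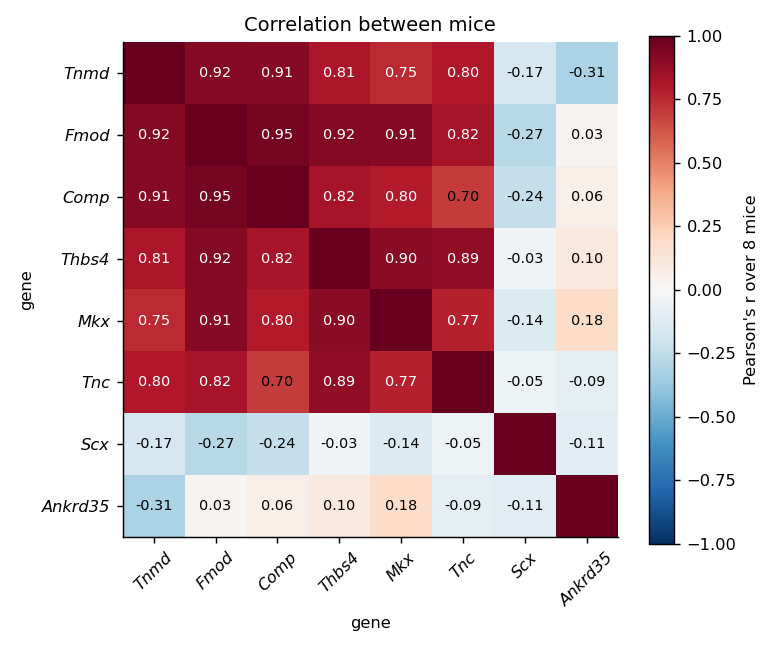
Pearson's r over 8 mice for each pair of the 8 markers (both axes list the genes; colour and number give r, from −1 to 1). The block of Tnmd, Fmod, Comp, Thbs4, Mkx and Tnc holds values of 0.70 to 0.95, while the rows of Scx and Ankrd35 hold values of −0.31 to 0.18.

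Over all 8 mice, Scx had no positive r with the other markers. Its r with the 7 others lay between −0.27 for Fmod and −0.03 for Thbs4. For Scx and Fmod the exact permutation p was 0.512 and rho was −0.43 (exact permutation p = 0.299), and without mice 3 and 8, the farthest from the Scx median, r was −0.18. These values were small and their signs depended on single mice, above all on mouse 8. Without it, r of Scx was −0.017 with Ankrd35, 0.10 with Fmod, 0.11 with Comp, 0.15 with Tnmd, 0.20 with Mkx, 0.30 with Tnc and 0.56 with Thbs4, the last with an exact permutation p of 0.198. Without mouse 7 alone, all 7 values stayed negative. Leaving out mouse 1 or mouse 2 gave r = 0.012 or 0.0026 with Thbs4, leaving out mouse 4 gave 0.039 with Tnc, and leaving out mouse 3 or mouse 6 gave 0.19 or 0.0025 with Ankrd35. Without mice 7 and 8, Scx had r = 0.79 with Thbs4 (exact permutation p = 0.0458, n = 6) and r = 0.81 with Mkx (exact permutation p = 0.0514, n = 6). Ankrd35 had r between −0.31 with Tnmd (exact permutation p = 0.455) and 0.18 with Mkx. Without mice 7 and 8, its r with Tnmd was −0.79 (exact permutation p = 0.0597, n = 6). Only 1.08% of all genes had a positive r with Scx at an unadjusted exact permutation p under 0.05, against 10.0% for Fmod, 9.89% for Thbs4, 9.42% for Mkx, 8.16% for Tnmd, 7.57% for Comp, 6.82% for Tnc and 4.22% for Ankrd35.

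**Figure D4:**
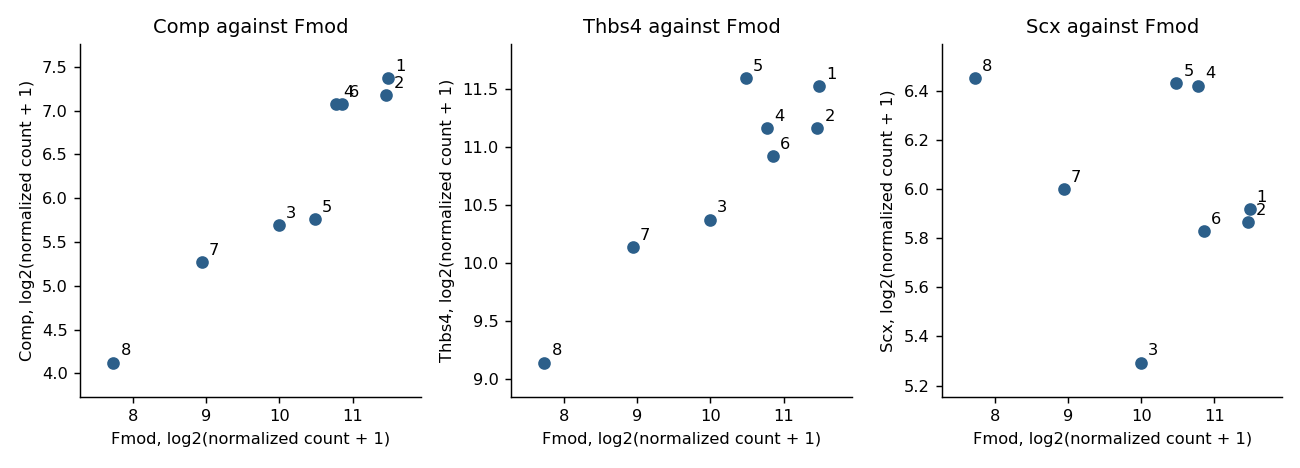
Comp, Thbs4 and Scx (y axes) against Fmod (x axes), all as log2(normalized count + 1), with 1 point per mouse and the mouse number beside it. Comp and Thbs4 climb with Fmod (r = 0.95 and 0.92), whereas Scx does not (r = −0.27, or 0.10 without mouse 8), with mouse 8 at the top left and mouse 3 at the bottom.

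Sequencing depth and library composition were checked against each gene in a family of 24 correlations that also included Bop1. The r of a marker with total reads ran from −0.37 for Scx to 0.53 for Tnc (exact permutation p = 0.177, rho = 0.45, and r = 0.52 without the 2 mice farthest in depth). With the share of the 10 most abundant genes it ran from −0.66 for Ankrd35 (exact permutation p = 0.0764, rho = −0.60, and r = −0.64 without the 2 farthest mice) to 0.45 for Tnmd. The adjusted p was 0.964 for all 24. Without the 2 mice farthest in depth, r with total reads was −0.86 for Scx and 0.37 for Ankrd35. It was positive for the 6 others, at 0.71 for Thbs4, 0.67 for Fmod, 0.63 for Mkx, 0.62 for Comp, 0.52 for Tnc and 0.43 for Tnmd, where over all 8 mice it was 0.25, 0.14, 0.19, −0.089, 0.53 and 0.068. The part of depth in the pairwise correlations was not tested.

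Other tendon genes were then set against Tnmd. Of the 22 tendon matrix genes, 15 had a positive r with Tnmd at an unadjusted exact permutation p under 0.05, against 8.16% of all genes, and the median r was 0.79, where the median of all genes was −0.0047. The count was 9 without mouse 8 (4.06% of all genes) and 6 without mice 7 and 8 (4.93% of all genes). None of the listed genes passed adjustment. Kera, the small leucine-rich proteoglycan keratocan, had r = 0.97 (exact permutation p = 2.48e-05, the smallest possible, adjusted 0.147), the same rank order as Tnmd in all 8 mice, and r = 0.97 without mice 2 and 8. Its level ran from 8.76 normalized counts in mouse 8 to 101 in mouse 2, or 49.3 ± 34.8 (SD, n = 8). Col11a1, a chain of a fibrillar collagen, had r = 0.96 (exact permutation p = 0.000372, adjusted 0.193) and rho = 0.98, and r = 0.90 without mice 2 and 8. The lowest values in this list were −0.51 for Cilp (exact permutation p = 0.197) and −0.44 for Egr2 (exact permutation p = 0.276). Cilp is a secreted matrix protein and Egr2 a zinc finger transcription factor.

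Of the 5 tendon sheath and progenitor genes, 1 passed the same unadjusted threshold, the surface sialomucin Cd34 (r = 0.85, exact permutation p = 0.00828), where 8.16% of all genes did, and the median r was 0.60. Without mouse 8 (4.06% of all genes passing) the count was 0 and the median 0.21, and without mice 7 and 8 (4.93%) they were 0 and −0.16. Tppp3, a tendon sheath marker, had r = 0.68 (exact permutation p = 0.0649), while Ly6a and Cd44 had r = 0.37 and −0.42. Among the 2 other gene families close to the markers, 2 of 3 thrombospondins passed, Thbs2 (r = 0.85, exact permutation p = 0.00853) and Thbs3 (r = 0.81, exact permutation p = 0.0110), and Thbs1 had r = 0.39. Of these, 1 passed without mouse 8 and 0 without mice 7 and 8. Tnxb was the 1 tenascin of 3 abundant enough to test (r = 0.76, exact permutation p = 0.0287), with Tnr and Tnn at means of 0.478 and 0.275 normalized counts, and it did not pass without mouse 8. The E proteins, which pair with factors such as Scx, gave r = 0.82 for Tcf12 (exact permutation p = 0.0121), −0.0032 for Tcf4 and −0.56 for Tcf3. For Tcf12 rho was 0.62 (exact permutation p = 0.115) and r was 0.30 without mice 2 and 8, and it did not pass without mouse 8.

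Genes of the myotendinous junction gave values of r with Tnmd on both sides of 0. Of 12, 4 had a positive r at an unadjusted exact permutation p under 0.05, where 8.16% of all genes did, and the median r was 0.16. The count was 0 without mouse 8 (4.06% of all genes), where the median r was −0.037, and 0 without mice 7 and 8 (4.93% of all genes). It was 1 with library totals (4.46% of all genes), 2 with Spearman's rho (5.14% of all genes) and 2 after removing trends with GC content and length (6.68% of all genes). Lama2 and Lamb2, laminin chains of the muscle basement membrane, had r = 0.87 (exact permutation p = 0.00499) and r = 0.82 (exact permutation p = 0.0118). Pxn, a focal adhesion adaptor, had r = −0.36, and Ankrd1, a stretch-responsive ankyrin repeat gene, had r = −0.66 (exact permutation p = 0.0762). Col22a1, the collagen that marks the junction itself, was named after its values were seen. It had 130 normalized counts in mouse 3, the lowest, and 444 in mouse 8, the highest, with a mean of 275 ± 92.4 (SD, n = 8). Mouse 8 was thus the highest animal for Col22a1 and the lowest for Tnmd, although over all mice r was −0.24 (exact permutation p = 0.582, rho = −0.33), and 0.31 without mice 2 and 8.

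Markers of other cell types were examined in the same way, and their part in the marker levels was not tested. Of 7 fibroblast markers, 5 passed the unadjusted threshold with a median r of 0.82, led by Dpp4 (r = 0.91, exact permutation p = 0.00250) and Dpt (r = 0.85, exact permutation p = 0.00685), while Mfap5 and Smoc2 had r = 0.35 and −0.24. The fibroblast count was 3 without mouse 8 and 1 without mice 7 and 8. The summed level of these markers ran from 4358 normalized counts in mouse 7 to 5873 in mouse 2. For macrophages 3 of 4 markers passed (median r 0.81, sum 941 to 2440 normalized counts), or 1 without mouse 8 and 1 without mice 7 and 8. The other marker, Cd68, had r = −0.41. Without mice 7 and 8, 1 macrophage marker had a negative r at an unadjusted exact permutation p under 0.05. For endothelium 1 of 3 passed (median r 0.70, sum 2645 to 4118), or 0 without mouse 8, 0 without mice 7 and 8 and 3 without mouse 6. Of 10 muscle fibre markers 1 passed, Ttn (r = 0.75, exact permutation p = 0.0301), while Myh4, Tnnt3 and Mb had r = 0.48, −0.16 and −0.39, and the median was 0.15. Without mouse 8 the fibre markers had a median r of 0.46, with 9 of 10 positive and 0 passing, and without mice 7 and 8 a median of 0.67, with 10 of 10 positive and 2 passing. Without GC content and length trends, the r of Ttn with Tnmd was −0.47. None of the 5 adipocyte (median r 0.68, sum 579 to 2124), 4 Schwann cell (median r −0.028, sum 1360 to 3494), 3 smooth muscle (median r 0.17, sum 1724 to 3329) or 4 tested cartilage markers (median r −0.28) passed, and no bone marker was abundant enough to test. Without mouse 3, however, 4 of the 5 adipocyte markers passed (8.50% of all genes), and 3 did with GC content and length trends removed (6.68% of all genes). Over all lists together 34 of 86 genes passed, where 1481 of 18157 genes did in all. Without mouse 8 these counts were 14 of 86 and 737 of 18148, and without mice 7 and 8 they were 11 of 85 and 894 of 18118.

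**Figure D5:**
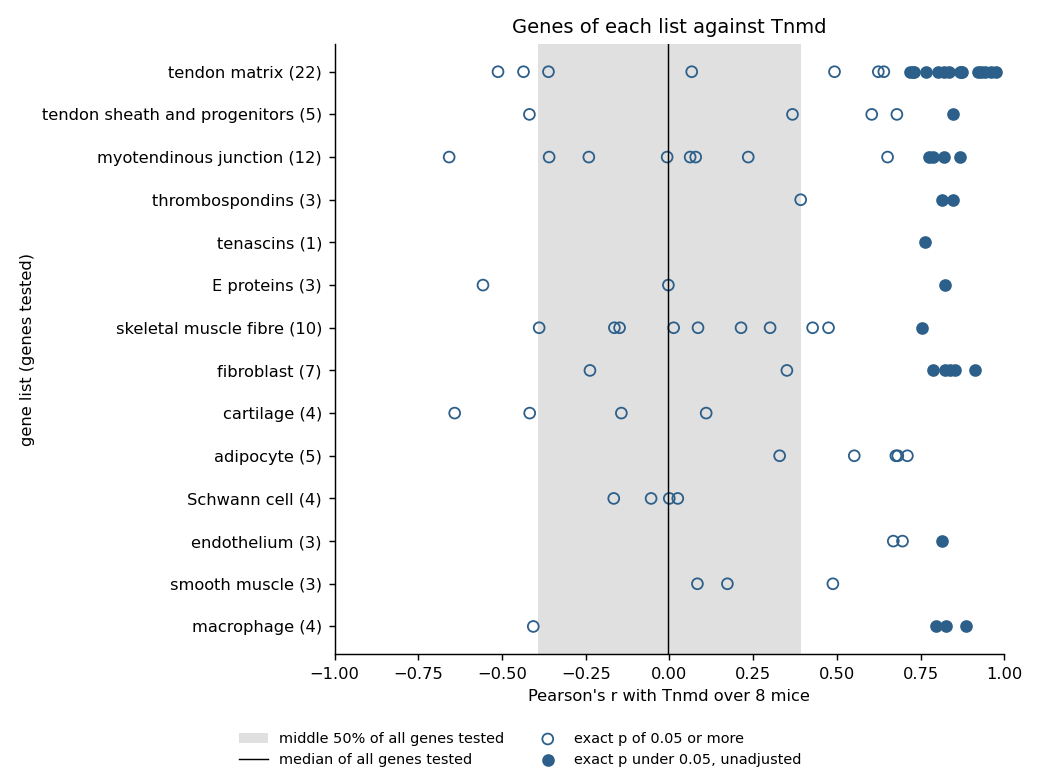
Pearson's r with Tnmd over 8 mice (x axis) for each tested gene of each list (rows, with the number tested); filled points have an unadjusted exact permutation p under 0.05, the band is the middle 50% of all genes and the line their median. Tendon matrix and fibroblast genes crowd to the right, with medians of 0.79 and 0.82, while junction and muscle fibre genes spread on both sides of 0 over all 8 mice, with medians of 0.16 and 0.15 (0.46 for muscle fibre genes without mouse 8).

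Among all genes with at least 10 reads in every library, the 3 most like each marker were found by r over the 8 mice. All had an adjusted p of 0.147 to 0.209 and are given as a description. Tnmd was most like Igsf10 (r = 0.98), Col6a3 (0.98) and Zmym2 (0.98), where Col6a3 is a chain of the microfibrillar collagen around cells. Fmod was most like Prickle2 (r = 0.99), Antxr1 (0.99) and Cdk13 (0.98), and Comp most like Zfp708 (0.98), Selplg (0.97) and Pgm5 (0.96). Antxr1 is a cell surface receptor for collagens. Mkx was most like Tgfbr2 (r = 0.99), a receptor for TGF-beta, Aff3 (0.99) and Boc (0.98). Thbs4 was most like Lcor (r = 0.996), Dpysl3 (0.99) and its own relative Thbs3 (0.99). Tnc was most like Vit (r = 0.99), a matrix protein with von Willebrand domains, Gm7265 (0.96) and Plxnc1 (0.95). Scx was most like Gm32717 and Gm32802 (r = 0.95 each, with the same values in every library) and Plekhh2 (0.94), and Ankrd35 most like Neurl2 (0.95), Slc27a4 (0.94) and Rgp1 (0.94). By the mean r with all 8 markers the leading genes were Ccn5 (0.70), a matricellular protein, the leukocyte genes Ptprc (0.69) and Itgb2 (0.69), Kantr (0.68) and Gm27624 (0.68).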

How the data were processed

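Poly-adenylated RNA was sequenced from the muscle of 8 mice. The authors made the 1 deposited table, whose values are a signal, the read count per gene divided by a size factor per library. FastQC, fastp, STAR and the build GRCm38.p6 are named in the submitters' processing notes. The strand setting and annotation release are not given in the sources used here. Whole reads were recovered by finding what 1 read is worth in each library, and 100% of values fell within 0.01 of a whole read. Coordinates and transcript lengths come from GENCODE on GRCm38.p6, and promoters from RefSeq. Of 55487 genes, the 18165 whose mean reached 5 normalized counts were tested on log2(normalized count + 1). Spread was tested with limma 3.58.1 (R 4.3.3) against a robust trend, and on recovered reads with edgeR 4.0.16. Correlations used all 40320 pairings of the mice, two-sided on the absolute r. Each p is the share of pairings with an absolute r at least as large, over these 8 animals only. Adjusted p values are by Benjamini-Hochberg over all genes or all 145284 correlations. The scripts were tested on simulated data. The markers and gene lists were chosen with earlier results of these data known. From each list related to tendon, and from the muscle fibre and fibroblast lists, the 2 highest and the 2 lowest r with Tnmd were named, and for each marker the 3 genes most like it. Alternatives were TMM factors, library totals, a pseudocount of 5, no filter, at least 10 reads in every library, medians, Spearman's rho, each mouse left out, and, chosen after seeing the data, mice 7 and 8 left out together and GC content and length trends removed. No comparison with other conditions was made, since the table holds 1.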

Additional observations from a re-analysis of the deposited data

Results flagged for a closer look

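In 1 of 24 values examined for a mouse apart from the other 7, the gap between the highest animal and the next took more of the whole range than Dixon's 95% value allows. This was the summed level of the 4 Schwann cell markers, where the gap was 0.699 of the range, with mouse 7 at 3494 normalized counts and the other 7 mice between 1360 and 2002. Chance alone flags about 1 in 20 such values, or 1.2 of 24. None of the 8 tendon and myotendinous markers was flagged, and 6.15% of all genes were. Mouse 7 was second lowest for Mkx, Fmod, Thbs4 and Comp, and the relation of these levels to the Schwann cell markers was not tested.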

How the results depend on the processing

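The mean levels of the 8 genes moved by less than 1 SD in 88 of 88 alternatives. The 15 pairwise r among Tnmd, Mkx, Fmod, Thbs4, Comp and Tnc were positive in 235 of 235. The number of positive pairs at an unadjusted exact permutation p under 0.05 was 15, ran from 8 (without mouse 8) to 14 with each mouse left out and was 4 without mice 7 and 8, of which 1 was Scx with Thbs4. Of all correlations of a marker with another gene, 7.15%, 3.79% to 7.24% and 3.84% passed in these settings. The genes of the lists passing with Tnmd numbered 34, ran from 14 (without mouse 8) to 37 and were 11 without mice 7 and 8. Of all genes, 8.16%, 4.06% to 8.67% and 4.93% passed in these settings. By list, with each mouse left out, these counts ran from 9 to 15 for tendon matrix, 0 to 3 for tendon sheath and progenitors, 0 to 5 for the myotendinous junction, 1 to 2 for thrombospondins, 3 to 5 for fibroblasts, 1 to 3 for macrophages, 0 to 4 for adipocytes, 0 to 3 for endothelium and 0 to 1 for tenascins, E proteins and muscle fibres. The share of all genes beside each of these is the same 4.06% to 8.67%. Markers more variable than the trend numbered 0 by limma (0.00551% of all genes passing), 5 by limma with no filter (1.35%) and 6 by edgeR (4.09%). No paired analysis was possible because the 8 mice form a single group.

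The sign of r turned for correlations that did not pass, and for Ttn. Without GC content and length trends, r was −0.0044 for Thbs4, −0.016 for Comp and −0.053 for Fmod with Ankrd35, 0.015 for Tnc and 0.032 for Thbs4 with Scx, and −0.47 for Ttn and 0.017 for Tnnt3 with Tnmd. Spearman's rho was −0.048 for Fmod and −0.095 for Comp and for Mkx with Ankrd35, 0.048 for Scx with Thbs4 and 0.071 for Tcf4 with Tnmd. With library totals, Scx and Ankrd35 had r = 0.098 and the SD of Ankrd35 was 1.13 times the trend. With a pseudocount of 5, Tcf4 and Tnmd had r = 0.015. Without mice 7 and 8, r with Tnmd was −0.16 for Ly6a, −0.21 for Mfap5, −0.61 for Thbs1, 0.043 for Mb, 0.21 for Smoc2, 0.53 for Col22a1, 0.80 for Tnnt3 and 0.91 for Tcf4. In the same 6 mice, r with Ankrd35 was −0.35 for Comp, −0.37 for Thbs4, −0.48 for Mkx and −0.68 for Fmod, and r with Scx was 0.17 for Comp, 0.19 for Tnmd, 0.23 for Fmod, 0.35 for Tnc, 0.79 for Thbs4 and 0.81 for Mkx. The SD was then 0.770 times the trend for Mkx and 1.16 times for Ankrd35.

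With each mouse left out in turn, r with Tnmd ran from −0.79 to 0.22 for Col22a1, −0.56 to 0.043 for Egr2, −0.021 to 0.64 for Mfap5, −0.58 to 0.042 for Smoc2, −0.47 to 0.48 for Tcf4, −0.14 to 0.71 for Thbs1, −0.41 to 0.35 for Tnnt3, −0.60 to 0.25 for Ankrd35 and −0.61 to 0.15 for Scx. With Scx it ran from −0.56 to 0.11 for Comp, −0.49 to 0.10 for Fmod, −0.33 to 0.20 for Mkx, −0.25 to 0.56 for Thbs4, −0.46 to 0.30 for Tnc and −0.33 to 0.19 for Ankrd35. With Ankrd35 it ran from −0.14 to 0.47 for Comp, −0.23 to 0.48 for Fmod, −0.13 to 0.36 for Thbs4 and −0.29 to 0.20 for Tnc. The SD over the trend ran from 0.723 to 1.04 for Ankrd35 and from 0.968 to 1.44 for Scx. Low counts limit Mkx, with 7 reads in its lowest library, and Comp and Tnmd, with 15 and 18.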
